A study of Homo sapiens with 9 samples.

Results

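The MAGE family (melanoma antigen genes) was followed on 9 expression arrays of RKO, a colorectal cancer cell line. Members were all non-control probes whose gene name begins with MAGEA, MAGEB, MAGEC, MAGED, MAGEE, MAGEF or MAGEH, which gave 30 genes and 37 probes out of 36337 gene names and 50599 probes on the array. Of these, 23 genes are type I (10 MAGEA, 10 MAGEB and 3 MAGEC genes, 29 probes) and 7 are type II (MAGED1, MAGED2, MAGED4B, MAGEE1, MAGEE2, MAGEF1 and MAGEH1, 8 probes). The study asked whether loss of UHRF1 together with inhibition of histone deacetylases (HDACs) turns silenced genes back on. RKO cells received a control siRNA (siCONT) or an siRNA against UHRF1 (siUHRF1), were kept for 72 h, and were then given ethanol as mock or 300 nM of the HDAC inhibitor trichostatin A (TSA) for 24 h, so that RNA was taken at 96 h. This made 4 groups of 2 arrays: siCONT with mock, siUHRF1 with mock, siCONT + TSA and siUHRF1 + TSA. Array 1 of each UHRF1-depleted group carried siUHRF1-1 and array 2 carried siUHRF1-2, so the spread within those groups includes the difference between the siRNAs. A ninth array held RNA of cells without siRNA that were kept for 72 h in 1 µM 5-aza-dC (5-aza-2′-deoxycytidine), which blocks DNA methyltransferases. All arrays are of this 1 cell line, and the sources used here do not say whether the 2 arrays of a group came from separate cultures, so p-values measure only the spread between these arrays.

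Genes of type I lie in clusters on the X chromosome, are normally transcribed in male germ cells, and are held silent in most other tissues, where DNA methylation of their promoters takes part in the silencing. Tumors often switch them on, and their peptides are known tumor antigens. Type II genes are transcribed in many tissues. Proteins of both types share the MAGE homology domain, through which many bind a RING ubiquitin ligase. UHRF1 is a chromatin protein without which dividing cells lose DNA methylation.

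UHRF1, the target of the siRNAs, stood at 2.69 and 2.69 in siCONT and at 0.36 and 0.08 in siUHRF1, on a log2 scale on which each array's 75th percentile is 0, and the fall passed the test (log2 difference -2.47, SE 0.141, limma adjusted p = 0.00238). Under TSA it went from 2.87 and 2.86 to -0.34 and -0.62 (-3.35, SE 0.141, limma adjusted p = 0.000132). The epithelial keratins KRT8 and KRT18 and the intestinal factors CDX1 and CDX2 were well above background on all 9 arrays, whereas the epithelial and intestinal markers CDH1 and VIL1 were on none. Signal at the 75th percentile ranged from 245.3 to 337.9 among the siRNA arrays, and was 821.6 on the 5-aza-dC array, from a separate slide and scan. Precision is limited by how few arrays there are. Mock arrays lay in 1 row of the slide and TSA arrays in the other, and siCONT and siUHRF1 arrays in different columns, so the treatments and the position on the slide cannot be told apart.

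The treatments changed how many type I genes could be seen at all, although fewer cells with a transcript and less of it per cell cannot be told apart in such bulk RNA. A gene was taken as above background when more than 50% of its probe's spots were called well above background by the scanner software, with each gene represented by its brightest probe over all arrays. Of the 23 type I genes, 1 was above background on each siCONT array and 1 on each siCONT + TSA array, and that gene was MAGEA6. On the siUHRF1 arrays there were 3 with siUHRF1-1 and 8 with siUHRF1-2. Both siUHRF1 + TSA arrays showed 13, and the 5-aza-dC array showed 19. Over all gene names the share moved far less, from 45.6% to 48.4% among siRNA arrays and to 53.9% after 5-aza-dC.

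**Figure D1:**
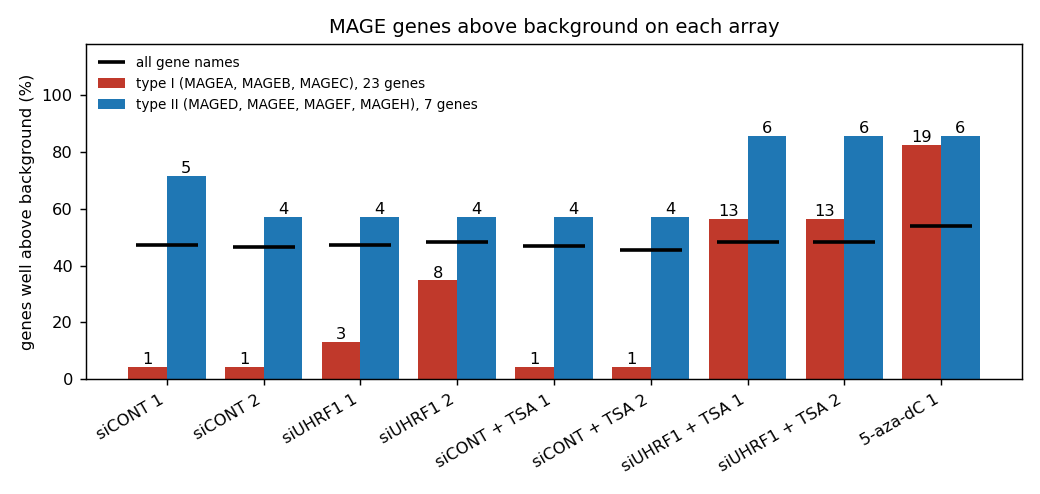
The share of type I genes (red, of 23) and type II genes (blue, of 7) well above background on each of the 9 arrays, with the number of genes over each bar; the black line gives the share of all gene names. Type I genes went from 1 on each siCONT array to 13 on each siUHRF1 + TSA array and 19 on the 5-aza-dC array.

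Counted as genes that were on neither siCONT array and on every array of a treated group, 2 of 22 type I genes came on in siUHRF1 (all gene names, 1.42% of 18712). None of 22 came on in siCONT + TSA (all gene names, 0.93%). In siUHRF1 + TSA 12 of 22 did, or 54.5% (all gene names, 3.56%), and on the single 5-aza-dC array 18 of 22 did, or 81.8% (all gene names, 15.7%). Each of these counts uses the same 2 siCONT arrays. Type II genes started higher: 5 and 4 of 7 were on in siCONT, 4 on each siUHRF1 and siCONT + TSA array, and 6 on each siUHRF1 + TSA array and on the 5-aza-dC array.

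Members that stayed dark are part of the picture. No array showed MAGEB4, MAGEB5, MAGEC3, the read-through MAGEA10-MAGEA5 or, among type II, MAGEE2. Only the 5-aza-dC array showed MAGEA8, MAGEA11, MAGEB1, MAGEB3, MAGEB16 and MAGEB18. The tests below therefore covered 13 type I and 6 type II genes on the siRNA arrays, those that every array of some group showed above background, and 19 and 6 with the 5-aza-dC array. Most of the 13 qualified only through the group where they were high and so had to differ, which is why counts are given against all 23 genes and their levels are printed. Dim spots also have a special value: on the siCONT arrays 17 and 18 of the 22 type I genes not above background carried only a surrogate signal that the scanner software writes for dim spots, so the small spread there is not that of measured signals.

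With UHRF1 depletion plus TSA, 12 of the 13 type I genes tested were called higher than in siCONT (limma adjusted p below 0.05) and none lower, with the other 10 of the 23 not tested. Those called were MAGEA1, MAGEA2B, MAGEA4, MAGEA6, MAGEA9, MAGEA10, MAGEA12, MAGEB2, MAGEB6, MAGEB10, MAGEC1 and MAGEC2. In the same comparison 16.1% of the 17739 gene names tested were called higher. Since most of the 13 entered through this group, nothing is read from their share called. The median log2 difference over all 23 genes was 1.01 when genes off in siCONT were put at their lower limit and genes off in both groups at 0, against 0.59 for the 7 type II genes and 0.00 for all gene names. TSA alone called none of the 13 (0 also at an unadjusted p below 0.05). Of the 13, only MAGEA6 was above background on any array of either group, so nothing is read from this 0. The background share, over all gene names tested, was 6.97% called higher. That background rests on all 4 arrays, since leaving out any 1 of them took the 1237 gene names called higher to between 22 and 43. UHRF1 depletion alone called 4 of them, MAGEA2B, MAGEA4, MAGEA9 and MAGEB6, where 0.614% of all gene names were called higher. These 3 comparisons share the siCONT arrays. Between 0.0282% and 8.07% of gene names were lower in them by the same test, but no MAGE gene was.

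Of the 10 MAGEA genes, 7 rose with both treatments. MAGEA2B and MAGEA2 are near-identical copies that the probe cannot tell apart, and their proteins are known as partners of the ligase TRIM28. The MAGEA2B probe read -6.33 and -6.21 in siCONT, -3.04 and -2.28 in siUHRF1, -6.17 and -6.08 in siCONT + TSA, -0.38 and -0.34 in siUHRF1 + TSA and 3.23 with 5-aza-dC. Both UHRF1-depleted groups lay above both groups with siCONT, and the combination lay above siUHRF1 alone. Where no siCONT array was above background, the fold is given as a lower limit. It sets the mean of the treated arrays against a mean over the siCONT arrays. Each siCONT array enters with the probe's own signal or the dimmest signal called above background, whichever was higher. The limit is approximate, since some brighter probes were not called, and it holds on the 75th percentile scale only. MAGEB17 for example read -4.15 on siCONT array 1 without being called, where the dimmest signal called was -4.364. MAGEA2B was at least 15.6-fold higher with both treatments (log2 difference 5.91, SE 0.233, limma adjusted p = 7.68e-05). With siUHRF1 alone it was at least 3.16-fold higher (limma adjusted p = 0.00339). A second probe of the gene, 1075 bases away on hg19, rose as well (3.96, limma adjusted p = 4.5e-05).

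MAGEA9, whose probe also matches its copy MAGEA9B, behaved much the same. It read -6.68 and -6.59 in siCONT, -4.52 and -4.36 in siUHRF1, -6.52 and -6.40 in siCONT + TSA, -0.60 and -0.60 in siUHRF1 + TSA and 1.25 with 5-aza-dC. The combination was at least 13.2-fold above siCONT (6.04, SE 0.104, limma adjusted p = 1.85e-05). With siUHRF1 alone its difference passed the test (2.20, limma adjusted p = 0.00132), but only array 2 was above background, so no fold is given. MAGEA4, a tumor antigen targeted by engineered T cells, read -6.46 and -6.35 in siCONT, -4.24 and -4.07 in siUHRF1, -6.31 and -6.20 in siCONT + TSA, -0.80 and -1.18 in siUHRF1 + TSA and 1.07 with 5-aza-dC. Its siUHRF1 arrays were both just above background, and no array overlapped between the groups with and without UHRF1 depletion. The combination was at least 10.1-fold above siCONT (5.42, SE 0.150, limma adjusted p = 2.65e-05). With siUHRF1 alone the difference passed the test (2.25, limma adjusted p = 0.00363), but its limit of 1.12-fold is too near 1 to be read as a minimum.

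MAGEA1, the founding member of the family and a melanoma antigen seen by T cells, differed between the siRNAs. It read -6.32 and -6.25 in siCONT, -5.29 and -3.80 in siUHRF1, -6.13 and -5.51 in siCONT + TSA, -2.52 and -1.79 in siUHRF1 + TSA and 1.62 with 5-aza-dC. With mock it was above background with siUHRF1-2 only, whereas both siUHRF1 + TSA arrays were above all others of the siRNA series. The combination was at least 4.49-fold above siCONT (limma adjusted p = 0.00392), and siUHRF1 alone did not pass (adjusted p = 0.351). MAGEA12 read -6.51 and -6.42 in siCONT, -5.59 and -4.38 in siUHRF1, -6.37 and -6.25 in siCONT + TSA, -2.41 and -2.06 in siUHRF1 + TSA and 1.45 with 5-aza-dC. Its only siRNA arrays above background were the 2 with both treatments, at least 4.24-fold above siCONT (limma adjusted p = 0.00132). MAGEA10 read -6.43 and -6.31 in siCONT, -6.56 and -6.21 in siUHRF1, -6.26 and -6.17 in siCONT + TSA, -2.48 and -2.75 in siUHRF1 + TSA and -0.14 with 5-aza-dC. With siUHRF1 alone it was below background and did not pass (log2 difference -0.01, SE 0.155, limma adjusted p = 0.993) and was at least 3.26-fold higher with both treatments (adjusted p = 8.71e-05).

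**Figure D2:**
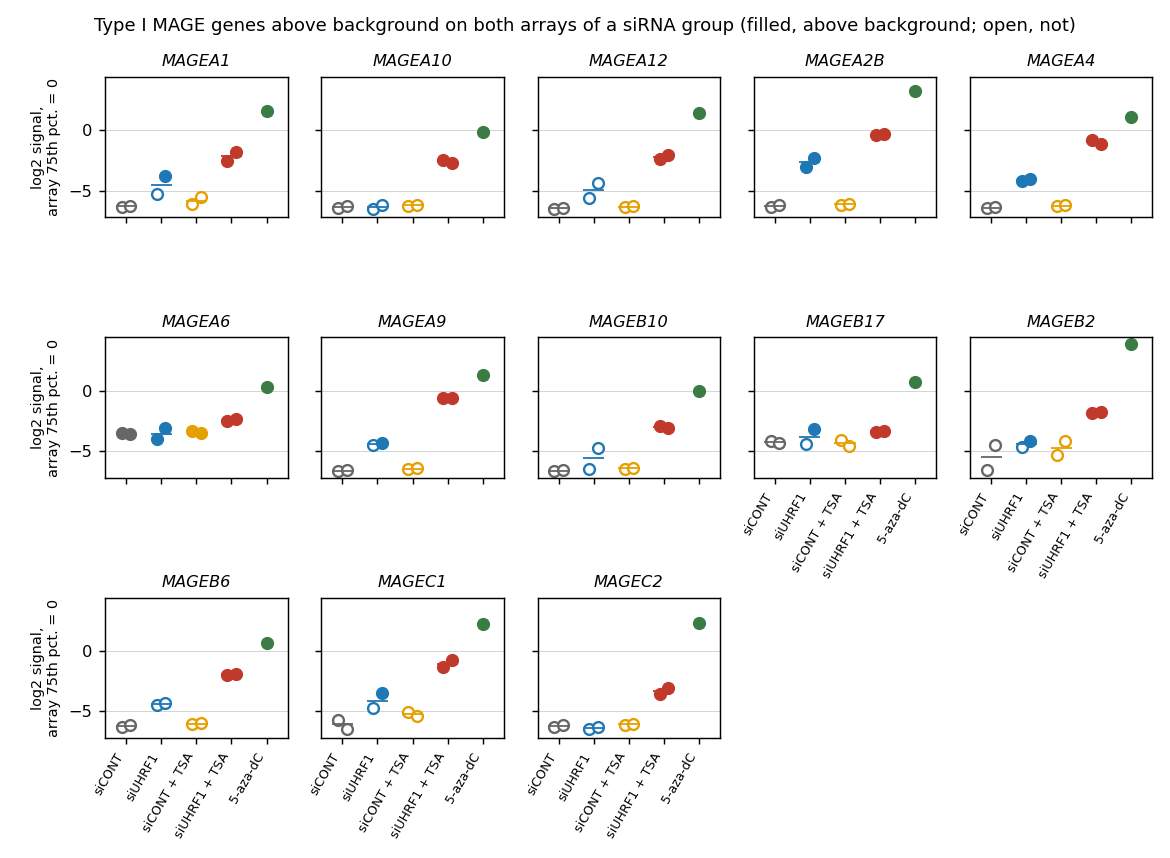
Log2 signal relative to each array's 75th percentile for the 13 type I genes above background on both arrays of a siRNA group, by group; each point is 1 array, filled where the probe was above background, and the line is the mean of the 2 arrays. MAGEA10, MAGEA12, MAGEB6, MAGEB10 and MAGEC2 are above background only with both treatments and with 5-aza-dC, whereas MAGEA2B and MAGEA4 are so with siUHRF1 alone too.

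MAGEA6 was the one type I gene seen in control cells, and its probes disagreed. Both probes also match MAGEA3, the near-identical antigen gene used in cancer vaccine trials. They are shown because the reading of the baseline rests on them (no run longer than 7 bases shared between them, starts 576 bases apart). The first lies at chrX:151870169-151870228 and the other at chrX:151870745-151870804 (hg19, plus strand, all lower case because no base is singled out):
MAGEA6 probe at the lower coordinate: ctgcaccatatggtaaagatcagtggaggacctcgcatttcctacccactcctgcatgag
MAGEA6 probe at the higher coordinate: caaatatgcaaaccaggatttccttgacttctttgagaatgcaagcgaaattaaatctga

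The probe at the lower coordinate, which stands for the gene here, was above background everywhere and read -3.54 and -3.58 in siCONT, -4.01 and -3.13 in siUHRF1, -3.35 and -3.55 in siCONT + TSA, -2.48 and -2.32 in siUHRF1 + TSA and 0.32 with 5-aza-dC. Its siUHRF1 arrays spanned the siCONT values, and the combination was 2.23-fold above siCONT (1.15, SE 0.274, limma adjusted p = 0.0293). The probe at the higher coordinate was above background on neither siCONT array and on neither siCONT + TSA array. It read -4.67 and -6.28 in siCONT, -3.33 and -2.57 in siUHRF1, -5.57 and -6.08 in siCONT + TSA, -0.88 and -0.59 in siUHRF1 + TSA and 3.11 with 5-aza-dC. By that probe the combination differed from siCONT by 4.75 (SE 0.537, limma adjusted p = 0.00305), so the presence of MAGEA6 or MAGEA3 transcript in untreated RKO cells is a reading of 1 probe. The first probe shares a longer run of bases with the MAGEA12 probe than with the other MAGEA6 probe. What the first probe detects in control cells was not tested.

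**Figure D3:**
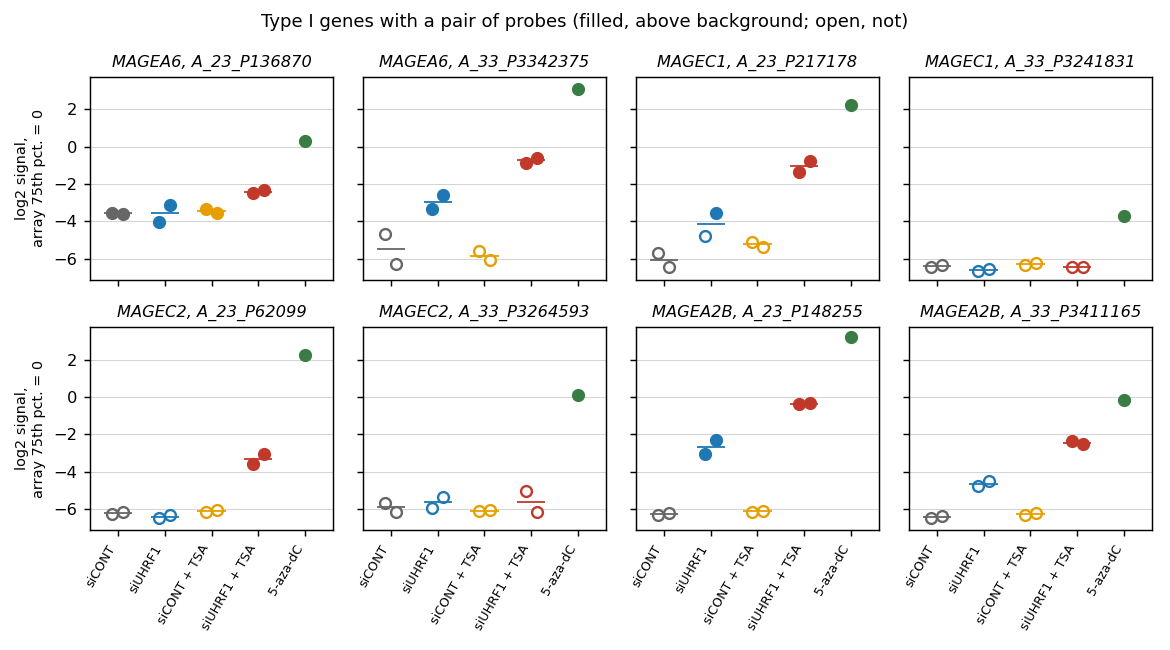
Log2 signal relative to each array's 75th percentile for both probes of MAGEA6, MAGEC1, MAGEC2 and MAGEA2B; each point is 1 array, filled where above background, and lines are means of 2 arrays. The MAGEA6 probes differ in siCONT, and the second MAGEC1 and MAGEC2 probes stay below background in siUHRF1 + TSA.

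Among the MAGEB genes, 3 rose. MAGEB2, which regulates stress granules in testis, read -6.56 and -4.50 in siCONT, -4.68 and -4.21 in siUHRF1, -5.36 and -4.16 in siCONT + TSA, -1.88 and -1.79 in siUHRF1 + TSA and 3.86 with 5-aza-dC. The siCONT arrays were 2.07 apart and neither was above background, and the combination was at least 5.60-fold higher (3.69, SE 0.695, limma adjusted p = 0.0142). MAGEB6 read -6.29 and -6.16 in siCONT, -4.51 and -4.28 in siUHRF1, -6.08 and -5.98 in siCONT + TSA, -1.98 and -1.92 in siUHRF1 + TSA and 0.63 with 5-aza-dC. It rose at least 5.16-fold with both treatments (4.27, SE 0.116, limma adjusted p = 2.64e-05). Its call with siUHRF1 alone (1.83, limma adjusted p = 0.00319) concerns arrays that were all below background, so no fold is given. MAGEB10 read -6.66 and -6.57 in siCONT, -6.47 and -4.72 in siUHRF1, -6.48 and -6.37 in siCONT + TSA, -2.96 and -3.09 in siUHRF1 + TSA and -0.01 with 5-aza-dC, with siUHRF1-2 above siUHRF1-1 in mock, and rose at least 2.46-fold with both treatments (limma adjusted p = 0.00573). MAGEB17 was above background on both siUHRF1 + TSA arrays, at -3.41 and -3.36 against -4.15 and -4.32 in siCONT, but was not called (limma adjusted p = 0.155).

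The MAGEC genes split as well. MAGEC1, often transcribed in myeloma, read -5.71 and -6.43 in siCONT, -4.76 and -3.52 in siUHRF1, -5.09 and -5.36 in siCONT + TSA, -1.34 and -0.78 in siUHRF1 + TSA and 2.22 with 5-aza-dC, and was at least 9.60-fold higher with both treatments (5.01, SE 0.448, limma adjusted p = 0.00143). MAGEC2, a partner of TRIM28, read -6.29 and -6.16 in siCONT, -6.46 and -6.34 in siUHRF1, -6.15 and -6.03 in siCONT + TSA, -3.56 and -3.05 in siUHRF1 + TSA and 2.26 with 5-aza-dC. Only the 2 arrays with both treatments stood out among the siRNA arrays, at least 2.02-fold above siCONT (limma adjusted p = 0.000384). Each gene has a second probe that was below background on all 8 siRNA arrays and above it on the 5-aza-dC array (for MAGEC2, -5.06 and -6.18 in siUHRF1 + TSA and 0.10 with 5-aza-dC). MAGEC3 was off on all 9 arrays.

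Some genes that rose lay beside genes that were not called, and others beside each other or alone. In the MAGEB2, MAGEB3, MAGEB4 and MAGEB1 cluster, whose probes span 31.5 kb at chrX:30237708-30269187 (hg19), MAGEB2 rose with both treatments, MAGEB3 and MAGEB1 were seen only with 5-aza-dC, and MAGEB4 was seen nowhere. MAGEB6 rose while MAGEB5, 22.9 kb away, was off throughout, and MAGEC1 rose while MAGEC3, 11.4 kb away, was off throughout. In the cluster of MAGEA genes at Xq28 from MAGEA4 to MAGEA1 (chrX:151092474-152481769, hg19), 6 of 7 members were called higher, all but the read-through MAGEA10-MAGEA5. Among them MAGEA6, MAGEA2B and MAGEA12 lay 16.4 and 13.2 kb apart, and MAGEB10 had no other member within 1000 kb. MAGEA9 rose between MAGEA11 and MAGEA8, which were seen only with 5-aza-dC. All members map to chromosome X except MAGEF1 on chromosome 3.

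The 250 bases before the start of these neighbors are shown because CpG dinucleotides are what DNA methylation acts on (RefSeq, GRCh38.p14, plus strand, CpG in capitals). Each pair sets a gene that rose (first) beside a gene of its cluster seen on no array (second), and other pairs of this kind are not shown. MAGEB2 is at chrX:30215313-30215562 and MAGEB4 at chrX:30241750-30241999. MAGEB6 is at chrX:26192190-26192439 and MAGEB5 at chrX:26215919-26216168. MAGEC1 is at chrX:141903644-141903893 and MAGEC3 at chrX:141894416-141894665:
MAGEB2: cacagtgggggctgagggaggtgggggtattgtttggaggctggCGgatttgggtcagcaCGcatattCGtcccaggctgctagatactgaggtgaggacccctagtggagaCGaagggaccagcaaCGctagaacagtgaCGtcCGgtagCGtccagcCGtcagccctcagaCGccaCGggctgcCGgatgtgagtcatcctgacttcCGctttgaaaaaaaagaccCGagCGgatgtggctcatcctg
MAGEB4: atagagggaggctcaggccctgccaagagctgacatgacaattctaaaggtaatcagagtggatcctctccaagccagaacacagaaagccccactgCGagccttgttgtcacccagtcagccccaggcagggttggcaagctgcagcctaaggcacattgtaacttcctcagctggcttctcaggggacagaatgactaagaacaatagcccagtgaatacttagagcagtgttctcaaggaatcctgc
MAGEB6: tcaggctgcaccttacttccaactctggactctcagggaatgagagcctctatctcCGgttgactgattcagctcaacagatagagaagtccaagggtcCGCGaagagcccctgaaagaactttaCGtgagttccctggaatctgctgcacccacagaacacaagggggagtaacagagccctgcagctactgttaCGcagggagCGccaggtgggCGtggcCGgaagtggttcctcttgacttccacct
MAGEB5: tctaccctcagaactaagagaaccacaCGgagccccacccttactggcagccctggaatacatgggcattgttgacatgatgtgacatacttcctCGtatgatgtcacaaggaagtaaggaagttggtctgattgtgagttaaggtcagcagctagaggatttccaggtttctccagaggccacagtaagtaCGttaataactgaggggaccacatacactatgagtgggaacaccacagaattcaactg
MAGEC1: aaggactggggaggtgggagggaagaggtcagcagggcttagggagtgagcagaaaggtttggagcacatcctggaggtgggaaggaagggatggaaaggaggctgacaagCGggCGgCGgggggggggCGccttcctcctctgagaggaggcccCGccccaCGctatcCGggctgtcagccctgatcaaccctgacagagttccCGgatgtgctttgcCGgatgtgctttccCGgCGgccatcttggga
MAGEC3: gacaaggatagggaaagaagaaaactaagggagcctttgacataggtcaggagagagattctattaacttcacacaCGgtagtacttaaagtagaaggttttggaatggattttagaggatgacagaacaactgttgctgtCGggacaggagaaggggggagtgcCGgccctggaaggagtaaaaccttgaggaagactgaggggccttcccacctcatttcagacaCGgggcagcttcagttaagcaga

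These 250 bases held 15 CpGs before MAGEB2 and 1 before MAGEB4. They held 8 before MAGEB6 against 3 before MAGEB5, and 11 before MAGEC1 against 4 before MAGEC3. The order was the other way around MAGEA9, which rose with 7 CpGs there. Its neighbors MAGEA11 with 18 and MAGEA8 with 8 were not above background with both treatments. Both neighbors still read higher with both treatments than on the other siRNA arrays. Promoter windows of 300 bases (250 before to 50 after the start) were on hand for 25 of the 30 members, 19 of them type I. The 10 type I genes with a window that were called higher with both treatments held 9 to 21 CpGs (median 12.5), and the other 9 held 1 to 21 (median 5), where the median of 27305 genes was 13. MAGEA11 with 21 CpGs was not among those called, so the ranges overlapped. The 3 type I genes with a window that were not called with 5-aza-dC held 2 (MAGEB4), 4 (MAGEB5) and 5 (MAGEC3). Yet MAGEB1 with 1 and MAGEB3 with 3 were called. Each window is that of the most upstream start of its gene, and the MAGEB1 window holds the full sequence of the MAGEB4 probe. Whether MAGEB1 is transcribed from that start in these cells was not tested. Related genes share promoter sequence, and no test was run. The letters CCGGAA, 1 form of the core of the sites that ETS factors bind, were searched on both strands (the match TTCCGG on the other strand can overlap it). They stood in 2 of 19 type I windows, in 2 of 6 type II windows and in 17.6% of all windows. The letters CCGGAT, which stand in the MAGEB2 and MAGEC1 stretches above, were not counted. ETS sites in general are therefore not compared here.

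**Figure D4:**
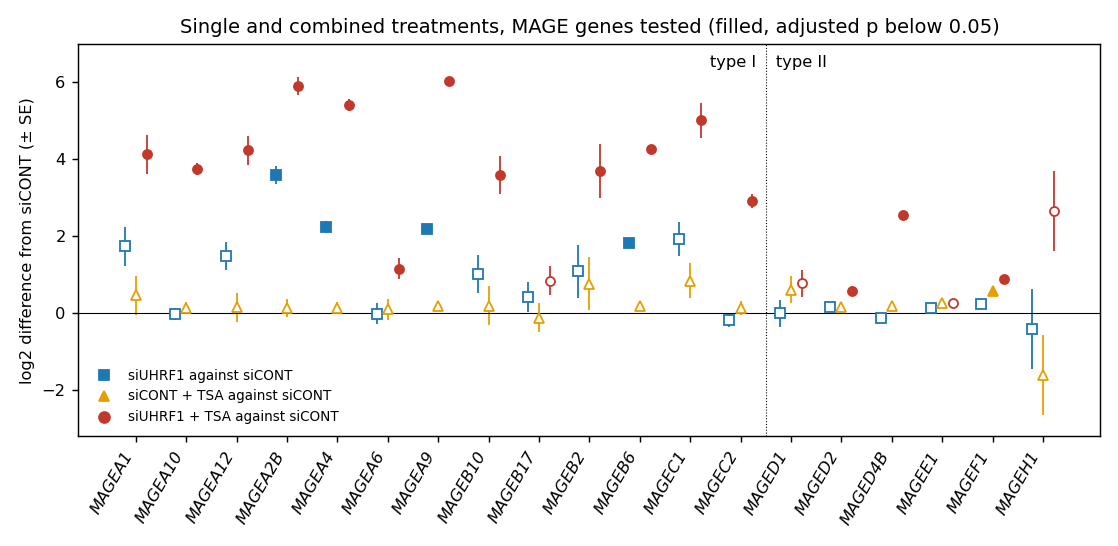
Log2 difference from siCONT with its SE for the 13 type I and 6 type II genes tested on the siRNA arrays, for siUHRF1 (blue squares), siCONT + TSA (orange triangles) and siUHRF1 + TSA (red circles), filled where limma's adjusted p was below 0.05; genes off in siCONT are plotted at their fitted difference, not at the lower limit. Among type I genes 12 circles, 4 squares and no triangle are filled.

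The combination was then set against each single treatment. With TSA in both arms, UHRF1 depletion called 10 of the 23 type I genes higher (13 tested), the 12 above without MAGEA6 and MAGEB2. Of all gene names tested, 3.27% were called higher. The other MAGEA6 probe was called here (5.09, limma adjusted p = 0.0057, at least 10.6-fold). MAGEA9 for example was at least 11.7-fold higher (5.86, SE 0.104, limma adjusted p = 2.23e-05). Within UHRF1-depleted cells, TSA called 11 higher, all but MAGEB2 of the 12. Of all gene names tested, 10.8% were called higher. Most genes called in either comparison passed the filter only through siUHRF1 + TSA, so nothing is read from the shares called. UHRF1 itself read 0.36 and 0.08 in siUHRF1 and -0.34 and -0.62 in siUHRF1 + TSA, and the part of this difference was not tested. The siUHRF1 group was above background for some genes, and MAGEA9, on 1 of its 2 arrays, gave 14.3-fold (3.84, SE 0.104, limma adjusted p = 7.01e-05). MAGEA4, above background on both, gave 8.97-fold (limma adjusted p = 0.0003) and MAGEA2B 4.94-fold (limma adjusted p = 0.00413).

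The difference between the effect of UHRF1 depletion with and without TSA was tested as such. On the log2 scale it passed for 5 type I genes, MAGEA9, MAGEA10, MAGEA4, MAGEC2 and MAGEB6, and for the type II gene MAGED4B, where 0.361% of all gene names were called higher. MAGEA9 gave the largest of these differences (3.66, SE 0.146, limma adjusted p = 0.0008). For MAGEA10, MAGEB6, MAGEC2 and MAGED4B neither treatment alone gave an array above background. These genes and MAGEA9 passed the filter only through siUHRF1 + TSA, which favors a difference above 0. Their SEs also rest in part on dim values, so nothing is read from the count called. For MAGEA2B, which siUHRF1 alone raised most, the difference of 2.16 did not pass by the probe that stands for the gene (limma adjusted p = 0.096) but did by its second probe (2.02, adjusted p = 0.0123).

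Some settings changed these calls. With normexp background correction, which adds 50 to each corrected signal, 7 type I genes were called for the combination against siCONT, 1 against siCONT + TSA and none for siUHRF1 alone or for the difference of effects. Over all gene names, 979, 76, 7 and 5 were then called higher in place of 2855, 580, 109 and 64. With a trended prior of the variance no gene name on the array was called for the difference, MAGE genes included, and siUHRF1 alone gave 2 when only its arrays and the siCONT arrays were fitted. Single arrays decided some calls. Against siCONT, the combination lost MAGEA6 without any 1 of its 4 arrays and MAGEB2 without either siUHRF1 + TSA array. Against siCONT + TSA it lost MAGEA1 and MAGEB10 without any 1 of the 4. The difference of effects was called for 8 type I genes without siUHRF1 array 2, and it lost MAGEC2 without siCONT array 2, siUHRF1 array 1 or either siCONT + TSA array.

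The siRNAs could be set side by side only as single arrays. In mock, the 5 genes above background with siUHRF1-2 and not with siUHRF1-1 were MAGEA1, MAGEA9, MAGEB2, MAGEB17 and MAGEC1, while MAGEA2B, MAGEA4 and MAGEA6 were on with both. The siUHRF1-2 array was the higher in 19 of 23 type I genes, by a median of 0.17, and over all gene names it was the higher in 26647 of 36336, by a median of 0.11. In siCONT, array 2 was the higher in 19 of 23 too. Under TSA the siRNAs gave 13 genes each, and the median difference of siUHRF1-2 from siUHRF1-1 over type I genes was 0.04. UHRF1 stood at 0.36 with siUHRF1-1 and 0.08 with siUHRF1-2 in mock.

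Type II genes were read the same way. MAGED1, a partner of the neurotrophin receptor p75, read 1.92 and 1.91 in siCONT, 1.61 and 2.22 in siUHRF1, 2.55 and 2.50 in siCONT + TSA, 2.18 and 3.20 in siUHRF1 + TSA and 2.10 with 5-aza-dC. All arrays were far above background, its siUHRF1 + TSA arrays were 1.02 apart, and no siRNA comparison passed (combination against siCONT 0.78, SE 0.347, limma adjusted p = 0.157). MAGED2, mutated in a transient antenatal form of Bartter syndrome, read 2.16 and 2.16 in siCONT, 2.23 and 2.42 in siUHRF1, 2.36 and 2.30 in siCONT + TSA, 2.66 and 2.85 in siUHRF1 + TSA and 1.73 with 5-aza-dC. Both siUHRF1 + TSA arrays lay above the other siRNA arrays, 1.51-fold above siCONT (limma adjusted p = 0.0151), and the second probe rose 1.70-fold (limma adjusted p = 0.0135). MAGEF1, partner of the ligase NSMCE1 in turnover of the protein MMS19, read 0.94 and 0.98 in siCONT, 1.20 and 1.22 in siUHRF1, 1.52 and 1.54 in siCONT + TSA, 1.92 and 1.80 in siUHRF1 + TSA and 1.02 with 5-aza-dC. It was the only member called with TSA alone (1.48-fold, limma adjusted p = 0.0195), and both treatments gave 1.87-fold (limma adjusted p = 0.00217).

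Not all type II genes were on in control cells. MAGED4B, whose probe also matches its copy MAGED4, read -6.59 and -6.47 in siCONT, -6.70 and -6.60 in siUHRF1, -6.39 and -6.29 in siCONT + TSA, -3.96 and -3.97 in siUHRF1 + TSA and -2.95 with 5-aza-dC. It was off on every siCONT, siUHRF1 and siCONT + TSA array and came on with both treatments, which is the pattern of MAGEC2. The difference of both treatments from siCONT passed the test (2.57, SE 0.0979, limma adjusted p = 7.02e-05), but its limit of 1.28-fold is too near 1 to be read as a minimum. MAGEE1, which binds dystrobrevin, read -3.14 and -3.03 in siCONT, -3.00 and -2.88 in siUHRF1, -2.78 and -2.83 in siCONT + TSA, -2.79 and -2.82 in siUHRF1 + TSA and -2.26 with 5-aza-dC and was called in no siRNA comparison. Of the 7 type II genes, 6 were tested. For the combination against siCONT 3 were called higher (MAGED2, MAGED4B and MAGEF1; 16.1% of all gene names tested). Against siCONT + TSA it was 1 (MAGED4B; 3.27%), and against siUHRF1 2 (MAGED4B and MAGEF1; 10.8%). MAGED4B passed the filter only through siUHRF1 + TSA, so nothing is read from these shares. With siUHRF1 alone none was called (0.614%), and 1, MAGEF1, had an unadjusted p below 0.05. The call of MAGEF1 with TSA alone was lost when any 1 of its 4 arrays was left out (log2 difference 0.54 to 0.59, limma adjusted p 0.14 to 0.155), as were nearly all TSA calls on the array. MAGED2 lost its call without either siCONT array or siUHRF1 + TSA array 2.

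MAGEH1 rests on 1 control array. It read -2.69 and -6.22 in siCONT, -5.37 and -4.35 in siUHRF1, -6.12 and -6.02 in siCONT + TSA, -1.86 and -1.74 in siUHRF1 + TSA and -0.77 with 5-aza-dC. Above background in siCONT on array 1 only, it was on in both siUHRF1 + TSA arrays and with 5-aza-dC. With all arrays the combination was not called against siCONT (2.66, SE 1.04, limma adjusted p = 0.118). Without siCONT array 1 it was (4.42, SE 0.407, limma adjusted p = 0.00633), and without siCONT array 2 it was not (0.90, limma adjusted p = 0.248). The epithelial marker EPCAM showed the same split in siCONT, at -3.27 on array 1 and -6.34 on array 2, and was above background on array 1 and with 5-aza-dC only. Its part in the MAGEH1 values was not tested.

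**Figure D5:**
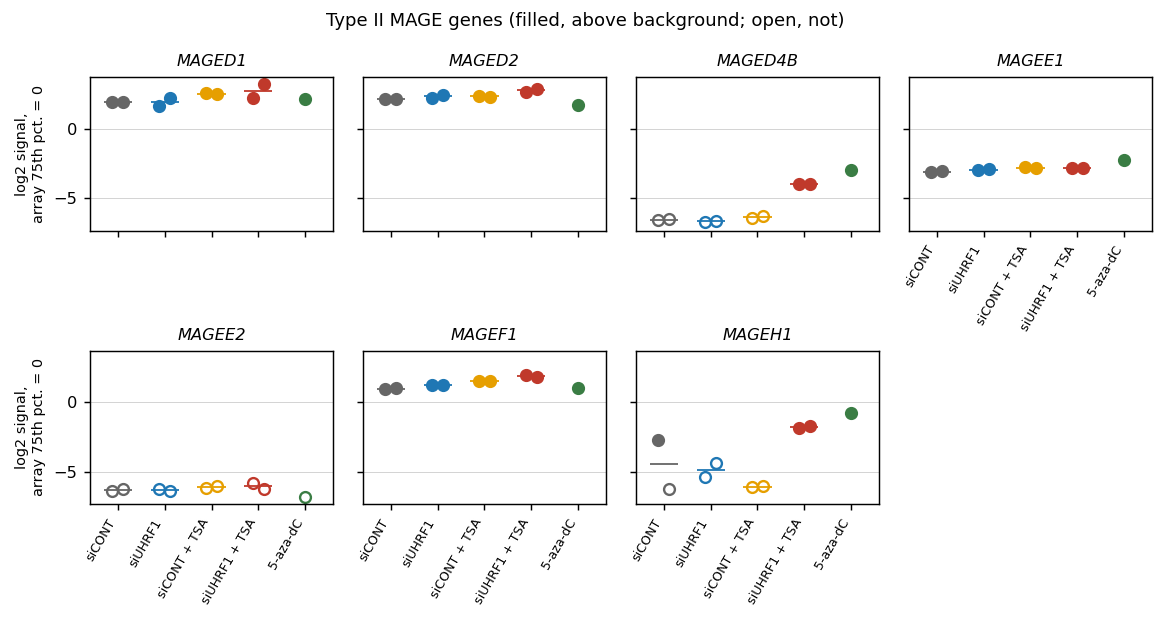
Log2 signal relative to each array's 75th percentile for the 7 type II genes; each point is 1 array, filled where above background, and lines are means of 2 arrays. MAGED1, MAGED2, MAGEE1 and MAGEF1 are above background on all 9 arrays, MAGED4B only with both treatments and with 5-aza-dC, MAGEE2 on none, and the siCONT arrays of MAGEH1 lie apart.

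Each type I gene that was seen at all read highest on the 5-aza-dC array. All 19 type I genes tested were called higher than siCONT. Of the 20287 gene names tested, 25.2% were called higher and 23.9% lower. Most of the 19 passed the filter only through a group where they were high, some through this array alone. Nothing is therefore read from their share called. The 5-aza-dC group is 1 array, assumed to vary like the others, on another slide and without siRNA. Drug, slide and transfection therefore cannot be told apart. The largest lower limits were at least 291-fold for MAGEB2, 187-fold for MAGEA2B, 96.0-fold for MAGEC2, 93.3-fold for MAGEC1 and 61.6-fold for MAGEA1, with limma adjusted p of 0.000533, 8.7e-06, 5.41e-06, 0.000158 and 0.000309. With both siRNA and TSA the same genes had limits of 5.60, 15.6, 2.02, 9.60 and 4.49-fold against the same siCONT arrays. MAGEA9 gave 47.7-fold and 13.2-fold. These limits are of the probe that stands for each gene. Like all fold limits here, they hold on the percentile scale and in the main processing only. On the log2 scale the 5-aza-dC limits of MAGEB2, MAGEA2B, MAGEC2, MAGEC1 and MAGEA1 were 8.184, 7.547, 6.585, 6.544 and 5.944. Across the alternative settings their fitted differences fell as low as 6.233, 5.627, 4.491, 4.619 and 3.988, below these limits. With 5-aza-dC the other MAGEA6 probe gave at least 172-fold. The second probes of MAGEA2B, MAGEC2 and MAGEC1 gave at least 18.2, 21.4 and 1.54-fold.

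The 6 genes seen only with 5-aza-dC spanned a wide range. MAGEB1 reached 0.44 (at least 27.1-fold above siCONT), MAGEA8 -0.41 (at least 15.0-fold) and MAGEB3 -0.51 (at least 14.1-fold), with limma adjusted p of 5.01e-06, 9.72e-06 and 4e-06. MAGEB16 reached -2.76, MAGEB18 -2.62 and MAGEA11, an androgen receptor coactivator, -2.77, with limits of 2.95, 3.26 and 2.92-fold. On both siUHRF1 + TSA arrays MAGEA8 stood at -4.58 and -4.16 and MAGEA11 at -4.88 and -5.04, above all other siRNA arrays but not above background. MAGEB1 and MAGEB3 were at -6.27 to -6.21 there, level with siCONT.

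Type II genes split on that array. MAGED4B (3.58, limma adjusted p = 1.19e-05) and MAGEE1 (0.82, limma adjusted p = 0.0026) were called higher. MAGED2 was called lower by its brightest probe (-0.43, limma adjusted p = 0.0461) and higher by its other probe (0.60, limma adjusted p = 0.0343), so it has no settled direction, and the lower call was lost without either siCONT array. MAGED1, MAGEF1 and MAGEH1 were not called with all arrays. MAGEH1 was called without siCONT array 1 (5.46, limma adjusted p = 0.00181) and also without siCONT array 2 (1.93, limma adjusted p = 0.0352). When the spike-in probes set the scale, the median of all genes fell by 1.64 on the log2 scale instead of standing at 0.05, with 1431 gene names higher and 15912 lower in place of 5109 and 4853. Then MAGEE1 turned to -0.87 and 4 type II genes were called lower and 1 higher. The 19 type I genes, most tested only through a group where they were high, were all still called higher. Normexp correction left 16.

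Other genes of the pathway were read from lists. Of 3 further type II MAGE genes, MAGEL2 was called with both treatments (1.25, limma adjusted p = 0.0489), NDN came on only with 5-aza-dC (6.47, limma adjusted p = 8.2e-05), and NSMCE3 was not called. Among 9 RING ligases and other partners of MAGE proteins, 7 were tested and none was called in any siRNA comparison, TRIM28 included (both treatments 0.38, limma adjusted p = 0.0975). With 5-aza-dC the partner EID3 rose (2.27, limma adjusted p = 0.000703) and NSMCE1 fell by 1.35 (limma adjusted p = 0.000326). CTCFL, a germline paralog of CTCF that has been linked to MAGEA promoters, was above background only with 5-aza-dC (at least 15.1-fold), and DNMT1 and DNMT3B rose there (0.60 and 0.85) but in no siRNA comparison.

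Genes beside the MAGEA cluster moved in part. Of 15 measured and 9 tested, 5 were called higher with both treatments and none lower. Over all gene names tested, 16.1% were higher and 8.07% lower. CSAG1 and CSAG2 passed the filter only through siUHRF1 + TSA and so had to differ. Nothing is therefore read from the share called. The antigen genes CSAG1 and CSAG2, embedded in the cluster, read -2.26 and -2.06 and -3.21 and -3.73 in siUHRF1 + TSA, and were off on the other siRNA arrays (at least 4.47-fold and 1.80-fold, limma adjusted p = 0.000629 and 0.000445). PNMA5 rose 12.6-fold (limma adjusted p = 0.00305), with siCONT array 2 not above background. CETN2 and NSDHL, transcribed in many tissues, rose 1.64-fold and 1.37-fold, and both also rose with TSA alone (1.56-fold and 1.72-fold). CSAG3 was not called (-0.07, limma adjusted p = 0.872).

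Marker genes of other cells were read as well. Of 7 germ cell markers none could be tested on the siRNA arrays, where their summed signal, in units of each array's 75th percentile, was 0.141 to 0.149 in siCONT and 0.158 to 0.207 in siUHRF1 + TSA. DDX4 and DAZL were above background only with 5-aza-dC, where the sum was 5.00, SYCP3 there and on siUHRF1 + TSA array 1, and PRM1, ACRV1 and TNP1 nowhere. The 3 fibroblast markers were all called higher with both treatments, where 16.1% of all gene names tested were (summed 0.159 to 0.208 in siCONT, 0.619 to 0.938 in siUHRF1 + TSA), with COL1A2 off in siCONT and COL1A1 above background on all arrays. Of 5 epithelial markers 3 were tested and 2 called higher, KRT18 (0.81, limma adjusted p = 0.00869) and KRT19, off in siCONT (at least 4.26-fold), and the summed signal went from 47.2 to 47.7 in siCONT to 73.8 to 90.6 in siUHRF1 + TSA. Neither leukocyte marker was called. The part of these genes in the MAGE values was not tested.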

How the data were processed

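Gene expression in 9 RNA samples of RKO cells was measured on 1-color Agilent SurePrint G3 Human GE v2 arrays. The deposited files hold spot intensities as the authors' scanner software wrote them, already background-subtracted (Agilent Feature Extraction 10.7 in the submitters' processing notes). A deposited table of processed values held the same signals within a relative difference of 0.00497 and served as an alternative. The authors then worked in GeneSpring GX, with settings not given in the sources used here.

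Outlier spots and 4259 control spots were left out of 62976. The processed signal was put on the log2 scale from the deposited intensities, each array's 75th percentile was subtracted, and spots of 1 probe were averaged. A gene was represented by its probe of highest mean. Signals were tested with limma 3.58.1 (lmFit and eBayes, in R 4.3.3) across all groups, with Benjamini-Hochberg adjusted p below 0.05 over the 23726 probes above background on every array of at least 1 group, or 27175 probes where the single 5-aza-dC array entered. Probe sequences and hg19 positions came from the deposited annotation where given, and promoters from RefSeq. Values for every array are given for members called with either treatment or both, and other members by range or count. Figures were drawn in Python 3.11.15 with matplotlib 3.10.9. The procedure was tested on simulated data. Alternatives covered background correction, scaling, filter, outlier spots, prior, arrays fitted, replicate block, the methods' test and each array left out. The members and gene lists were chosen with earlier results of these data known.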

Additional observations from a re-analysis of the deposited data

Results flagged for a closer look

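Genes whose response to UHRF1 depletion differed between cells with and without TSA, by limma's test of that difference over all probes tested, are given as the log2 difference between the responses. Among type I genes these were MAGEA9 (3.66, SE 0.146, limma adjusted p = 8e-04), MAGEA10 (3.62, SE 0.219, limma adjusted p = 0.0025), MAGEA4 (3.01, SE 0.212, limma adjusted p = 0.00453), MAGEC2 (2.96, SE 0.251, limma adjusted p = 0.00963) and MAGEB6 (2.25, SE 0.164, limma adjusted p = 0.00502). Among type II genes it was MAGED4B (2.5, SE 0.138, limma adjusted p = 0.00228). All of these responses were higher with TSA, and all of these genes had dim siCONT arrays. All but MAGEA4 passed the filter only through siUHRF1 + TSA, which favors a difference above 0.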

How the results depend on the processing

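Numbers are genes called, out of 23 type I and 7 type II. With normexp correction, type I counts were 0 for siUHRF1, 7 for the combination against siCONT, 1 against siCONT + TSA, 4 against siUHRF1 and 0 for the difference of effects. Type II counts were 0 for TSA, 1 against siCONT and 0 against siCONT + TSA, against siUHRF1, for the difference and for 5-aza-dC. Under it the combination against siCONT + TSA turned to -0.305 for MAGED4B and -0.111 for MAGEC2, their difference of effects to -0.235 and -0.143, and MAGEE1 with 5-aza-dC to -0.05. With spike-in scaling MAGEE1 turned to -0.871, and type II counts were 0 for TSA, 1 against siUHRF1 and 5 for 5-aza-dC. That scaling put the median of all gene names at -0.10 for TSA in place of 0.08, where 258 were higher and 432 lower in place of 1237 and 683, and for the combination gave 1394 and 1230 in place of 2855 and 1432. Quantile normalization gave 2524 and 2067 for the latter, and 1111 and 900 for TSA. Without the filter, type II with TSA gave 0. A trended prior gave 0 for the difference in both types. With only the arrays compared, counts were 2 for type I with siUHRF1, 3 for type II with TSA and 2 for type II against siCONT + TSA. The methods' test without adjustment gave 1 type II gene for siUHRF1, 4 for TSA and 3 against siCONT + TSA. After Benjamini-Hochberg it gave type I counts of 0 for siUHRF1, 4 against siCONT, 0 against siCONT + TSA and 0 against siUHRF1, with type II counts of 2 for TSA, 1 against siCONT, 0 against siCONT + TSA and 0 against siUHRF1. Leaving out 1 array gave 4 to 6 type I genes for siUHRF1, 10 to 11 against siCONT, 8 in each case against siCONT + TSA, 8 to 12 against siUHRF1, 4 to 8 for the difference and 19 in each case for 5-aza-dC. Type II counts were then 0 for TSA, 2 to 4 against siCONT, 2 to 3 against siUHRF1 and 1 to 2 for the difference. The cause of these changes was not tested. With the replicate number as a replicate block, type I counts were 4 for siUHRF1, 12 against siCONT, 11 against siCONT + TSA, 12 against siUHRF1 and 5 for the difference. The replicate numbers paired the UHRF1-depleted groups by siRNA, and replicate differences correlated at 0.466 across probes between them. Elsewhere the correlation was -0.047 to 0.08, so the numbers did not pair the other samples. The main fit did not use the pairing by siRNA. Over single genes, 830 results kept direction and call, 140 lost the call and 6 turned. No block for slide or scan could be fitted, since 1 slide and 1 scan held the 8 siRNA arrays. Where signals are not above background, only approximate limits are known.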
